A study of Homo sapiens with 4 samples.

Results

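The regions described here are 3248 stretches of open chromatin, away from the ends of protein-coding genes, that were called in both WT control libraries of the renal carcinoma line 786-O and in neither DEK KO library. They were found by merging the 4 peak lists on chromosomes 1 to 22 wherever peaks overlapped by 1 bp or more. A merged region was kept where both WT control lists and neither DEK KO list had a peak in it, and where it lay more than 1 kb from either end of any protein-coding gene. They made up 2.71% of the 119879 such distal regions among 134897 merged regions, and are called WT-only regions below. The opposite class, with a peak in each DEK KO list and no peak in the WT control lists, held 8091 distal regions (6.75%). The DEK KO lists were longer, with 100037 and 96862 peaks against 87220 and 88059 in the WT control lists. With all lists limited to the length of the shortest there were 4473 WT-only regions. The members were chosen by the presence and absence of peak calls in these 4 lists, so their number and their peak heights are given as a description and were not tested. Before the distance limit there were 3454 WT-only regions, of which 206 lay within 1 kb of a gene end.

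The study measured chromatin accessibility by ATAC-seq, in which a transposase cuts and tags open DNA, in 4 libraries, 2 per genotype. 786-O is a clear cell renal carcinoma line that lacks a functional VHL protein. The DEK KO libraries came from cells of a Cas9-expressing 786-O clone (LentiCas9-Blast virus) that were infected with LentiGuide-Puro virus carrying guide RNAs against DEK and sorted as single cells. The WT control libraries came from negative control cells with a wild-type genotype, named after Cas9 in the labels, so both groups carry the nuclease. Guide-induced mutations leave the DEK gene in place, so peak lists do not check its loss. In a bulk library, fewer cells with an open site and less opening per cell cannot be told apart. All cells grew in medium with serum and antibiotics. Whether the libraries of one group were made from different clones or cultures is not in the labels, the peak names of the DEK KO lists carry different code numbers of unstated meaning, and p-values over libraries therefore reflect only the spread of these 4 samples, possibly technical. The extraction text in the labels speaks of RNA and an mRNA kit although the molecule is genomic DNA, and the making of the ATAC libraries was not given in the sources used here. Of 8 renal and renal carcinoma marker genes, 6 had a peak at a gene end in all 4 lists (PAX8, LHX1, CDH6, VIM and MET among them) and 2 in none (PAX2 and CA9). Of 9 markers of blood, liver, nerve, endothelium and smooth muscle, 7 had no such peak in any list, and APOA1 and SNAP25 had one in all 4.

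DEK is an abundant chromatin protein that binds DNA with a preference for structured forms such as cruciforms, introduces supercoils into chromatin and acts as a histone chaperone. Open regions far from gene ends are where most enhancers lie, short stretches of DNA bound by transcription factors that act on promoters over a distance. Such regions differ far more between cell types than promoters do. An open region can also be an insulator, an unannotated start site or a site with no known role, and accessibility alone does not tell these apart.

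Sequence could be shown for the WT-only regions that overlap a start window, which is the stretch from 250 bases before to 50 bases after a RefSeq transcription start (build GRCh38.p14). A region more than 1 kb from a gene's outer ends can still hold a start, of a noncoding RNA or of a shorter transcript inside a protein-coding gene. Among the WT-only regions 35 (1.08%) overlapped 38 such windows of 35 genes, 23 of them lncRNA genes and 12 protein-coding. The share was 1.24% in KO-only regions, 1.81% in distal regions called in both WT control lists and 1 DEK KO list, and 4.38% in those called in all 4 lists. For 13 genes the summits of both WT control peaks fell inside the window, and the 6 with the highest-ranked regions are printed, since in them the letters at the point of greatest opening can be read. Each line runs 5′ to 3′ on the gene's strand with the start at base 251. Capitals mark the stretch from 10 bases before the first to 10 bases after the last of the 2 WT control summits. The windows are chr1:166947505-166947804 on the plus strand for LOC124904449, a lncRNA in the span of ILDR2, chr7:561708-562007 (plus) for PRKAR1B-AS2, a lncRNA in the span of PRKAR1B, and chr7:12504147-12504446 (plus) for C7orf78. The others are chr5:68746344-68746643 (minus) for the lncRNA LOC124900991, chr22:44676835-44677134 (plus) for a start inside PRR5, a component of mTOR complex 2, and chr9:693430-693729 (plus) for a start inside KANK1, an adaptor between focal adhesions and microtubules.
LOC124904449: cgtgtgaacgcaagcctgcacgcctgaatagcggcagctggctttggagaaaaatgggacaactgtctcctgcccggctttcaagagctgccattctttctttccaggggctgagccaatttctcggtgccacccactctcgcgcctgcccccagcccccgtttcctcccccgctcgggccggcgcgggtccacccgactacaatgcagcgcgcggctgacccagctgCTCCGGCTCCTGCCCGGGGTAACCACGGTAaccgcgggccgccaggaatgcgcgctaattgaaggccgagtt
PRKAR1B-AS2: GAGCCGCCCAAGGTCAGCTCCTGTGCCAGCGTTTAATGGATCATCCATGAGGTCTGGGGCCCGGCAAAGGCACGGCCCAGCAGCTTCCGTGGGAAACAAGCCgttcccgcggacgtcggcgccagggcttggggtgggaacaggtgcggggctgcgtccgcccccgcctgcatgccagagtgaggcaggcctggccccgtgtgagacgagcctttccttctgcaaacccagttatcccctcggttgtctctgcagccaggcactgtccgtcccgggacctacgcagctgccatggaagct
C7orf78: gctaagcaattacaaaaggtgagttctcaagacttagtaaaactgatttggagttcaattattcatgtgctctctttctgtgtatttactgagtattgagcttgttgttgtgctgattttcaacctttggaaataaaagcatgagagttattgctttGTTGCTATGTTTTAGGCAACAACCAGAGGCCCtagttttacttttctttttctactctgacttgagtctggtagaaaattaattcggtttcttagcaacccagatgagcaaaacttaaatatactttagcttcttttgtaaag
LOC124900991: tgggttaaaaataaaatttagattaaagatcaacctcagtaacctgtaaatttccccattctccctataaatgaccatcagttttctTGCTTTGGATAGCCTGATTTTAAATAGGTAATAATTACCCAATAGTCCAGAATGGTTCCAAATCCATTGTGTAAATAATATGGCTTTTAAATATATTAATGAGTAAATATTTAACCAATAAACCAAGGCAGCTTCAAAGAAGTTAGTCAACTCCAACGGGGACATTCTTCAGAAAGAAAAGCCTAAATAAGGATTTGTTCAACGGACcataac
PRR5: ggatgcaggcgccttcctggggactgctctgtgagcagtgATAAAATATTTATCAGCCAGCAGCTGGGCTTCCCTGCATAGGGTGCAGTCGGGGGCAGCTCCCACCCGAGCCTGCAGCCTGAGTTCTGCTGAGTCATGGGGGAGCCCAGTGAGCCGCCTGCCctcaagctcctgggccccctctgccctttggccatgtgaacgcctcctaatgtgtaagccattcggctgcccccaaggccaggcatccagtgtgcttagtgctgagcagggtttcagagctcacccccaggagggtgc
KANK1: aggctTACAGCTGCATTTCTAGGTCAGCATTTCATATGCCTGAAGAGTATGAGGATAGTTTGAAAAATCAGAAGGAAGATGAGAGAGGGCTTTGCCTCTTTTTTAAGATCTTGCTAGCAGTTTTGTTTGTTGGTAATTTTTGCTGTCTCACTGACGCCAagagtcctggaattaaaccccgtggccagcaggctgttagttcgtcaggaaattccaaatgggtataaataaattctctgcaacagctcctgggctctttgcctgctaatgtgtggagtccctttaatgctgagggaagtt

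In the LOC124904449 window the WT control summits lay 12 and 3 bases before the start, so that the capitals cross it. The C7orf78 summits lay 83 and 72 bases before the start printed here, 11 bases apart. The LOC124900991 summits were the farthest apart of the 6, one at 33 bases after the start and the other at 153 before it. Base composition also differed between these windows. The LOC124904449 window was CpG-rich, with 64.7% GC and 27 CpG dinucleotides, and the PRKAR1B-AS2 window had 66.0% GC and 21. Across all 38 windows the median was 44.3% GC with 5 CpG, against 58.7% and 14 in the 2684 windows that overlap distal regions of all 4 lists and the same 58.7% and 14 in all 33725 windows.

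Short motifs, 11 in all, were searched as plain letters on both strands of the windows. The AP-1 letters TGANTCA occurred in 1 of the 38 (2.63%), which is the PRR5 window printed above, against 16.2% of the windows at distal regions of all lists and 7.67% of all windows. The SOX letters ACAAAG occurred in 11 (28.9%), against 14.9% and 16.0%. The FOX letters TGTTTAC occurred in 4 (10.5%), against 3.76% and 3.45%. The TEAD letters GGAATG were found in 13.2%, against 17.1% and 14.0%, and the RUNX letters TGTGGT in 15.8%, against 16.4% and 13.1%. The ETS letters CCGGAAG were found in 5.26%, against 9.99% and 10.3%, and the E-box CACGTG in 5.26%, against 7.38% and 7.18%. HNF4 letters (CAAAGTCCA) and NF-kB letters (GGGANTTCC) each occurred in 1 window, and the extended nuclear receptor letters TCAAGGTCA and the CREB letters TGACGTCA in none. The windows are few, their base composition differs as given, and a match of letters is not a bound site. Windows of 1 gene can overlap, so a match can count more than 1 time. Both windows of LOC105377113 hold FOX letters, and both of C7orf78 hold SOX letters. Windows also reach beyond the WT-only region, and the one with HNF4 letters (LOC105375138) has only 12 bases in it.

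The highest-ranked WT-only regions lay near genes of several kinds, among them metabolic enzymes, kinases, receptors and transcription factors. The rank of a region is set by the lower of its percentiles of −log10 p in the 2 WT control lists, so that a high rank needs a high peak in both. The fold is the authors' enrichment of the summit over its background in that list, and fold and −log10 p are used here only to describe or rank peaks within a list. The highest rank went to chr12:21666188-21667570, 8.35 kb from LDHB, the lactate dehydrogenase subunit that favours turning lactate into pyruvate. Its fold was 12.3 in WT control replicate 1 and 10.7 in replicate 2, at percentiles of 86.4 and 80.9. Next was chr5:112228219-112229081 inside EPB41L4A, a band 4.1 protein that links membrane and cytoskeleton, with folds of 11.1 and 11.4 in replicates 1 and 2. Its summits lay 1 bp apart, and it overlaps the start window of the lncRNA LOC101927023. The region ranked after it, chr6:134223460-134224643 inside SGK1, a kinase induced by glucocorticoids that promotes sodium uptake in the kidney tubule, had folds of 11.6 and 12. No DEK KO list had a peak in any of them, and the nearest region with a DEK KO peak was 7.96, 9.92 and 5.78 kb away in the same order.

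Other regions among the 25 highest lay by regulators of metabolism and transcription. One was inside PPARGC1A, the coactivator that drives mitochondrial biogenesis (chr4:23819104-23819717), with folds of 9.18 and 9.09 in replicates 1 and 2 and summits 6 bp apart. One was inside NCOA3, a coactivator of steroid receptors (chr20:47544130-47544842, folds 6.47 and 6.31), and one inside NFIA, a nuclear factor I transcription factor (chr1:61282103-61282746, folds 9.98 and 8.82). MED18, a subunit of the Mediator complex, was the gene nearest to chr1:28343241-28343695 (folds 8.23 and 6.36). The region nearest TARS1, the threonyl-tRNA synthetase, lay 131 kb from it, with folds of 6.31 and 4.92 (chr5:33308874-33309653). That inside NSUN4, a methyltransferase of mitochondrial ribosomal RNA, had folds of 5.10 and 4.91 (chr1:46342060-46342491). A region inside DPYD, the first enzyme of pyrimidine breakdown, had 11.8 and 9.44 (chr1:97489277-97490218).

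Receptors, ligands and transporters made up another group. The region nearest FGFR2, a fibroblast growth factor receptor, lay between genes at chr10:121448767-121450456 with folds of 10.2 and 7.93 in replicates 1 and 2. It was 1690 bp wide, and the nearest region with a DEK KO peak was 59.4 kb away, the largest gap among the 25. The region nearest ADRA2A, the alpha-2A adrenergic receptor, was 216 kb from the gene (chr10:111297121-111298543, folds 9.09 and 10.2). The one nearest SLIT2, a secreted guidance ligand, was 315 kb away (chr4:19936407-19936952, folds 11 and 8.49). Regions inside ABCC3, an efflux pump of organic anions (chr17:50670954-50671472, folds 6.45 and 7.04), and NCALD, a neuronal calcium sensor (chr8:102053419-102054026, folds 11.3 and 11.1), belonged to the same set. TGFBI, a matrix protein induced by TGF-beta (chr5:136011450-136012264, folds 5.36 and 4.91), and TNFSF18, the ligand of the receptor GITR (chr1:173098881-173099663, folds 6.39 and 5.65), each had 1 region nearby.

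Further regions of the 25 were inside NEK11 or nearest to HS3ST1, TBC1D1, NSG2, PLEKHM2, ASB7 and PLA2G4A. HS3ST1 adds a sulfate to heparan sulfate chains, TBC1D1 is a Rab GTPase-activating protein of glucose uptake, and PLA2G4A is the cytosolic phospholipase that releases arachidonic acid. Their folds ran within the range of the whole set, which was 4.48 to 12.3. The region nearest PLA2G4A lay 1306 kb from it, that nearest NSG2 218 kb and that nearest HS3ST1 184 kb. A nearest gene is given as a landmark only. Of the 25 regions 10 lay inside a gene span and 15 between genes, 9 were more than 100 kb from a gene end, and 7 were on chromosome 1. The WT control summits were 24 bp apart in the median and at most 189 bp. Replicate 1 had the higher fold in 19 of the 25 and in 1987 of all 3248 WT-only regions.

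**Figure D1:**
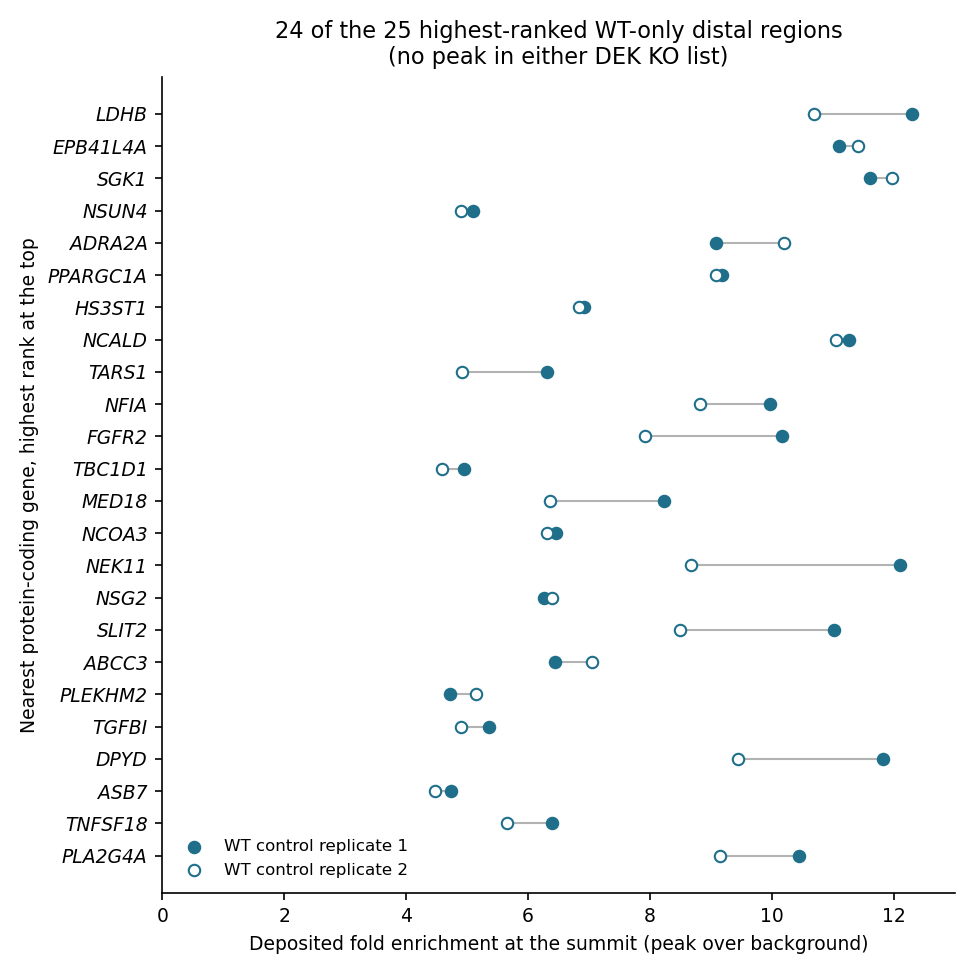
Deposited fold enrichment at the summit (x axis, linear, ratio of peak to background) of 24 of the 25 highest-ranked WT-only distal regions, named by nearest protein-coding gene with the highest rank at the top. Filled circles are WT control replicate 1, open circles replicate 2, and no DEK KO list had a peak at any of them. Folds run from 4.48 (ASB7, replicate 2) to 12.3 (LDHB, replicate 1).

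The deposited fold and −log10 p of a peak together give back the number of reads stacked at its summit and its expected background, since the peak caller writes the fold as (pileup + 1) / (background + 1) and p as a Poisson tail. Solved this way, every peak of all 4 lists had a whole-number pileup that returned its −log10 p within 0.01. The background that recurred most often in a list, taken as its genome-wide level, was 1.92 and 1.90 reads in DEK KO replicates 1 and 2 and 2.16 and 2.39 reads in WT control replicates 1 and 2. The mean was 1.91 ± 0.0136 in DEK KO and 2.27 ± 0.164 in WT control libraries (SD, n = 2 each), a ratio of 0.839 (exact permutation test, two-sided, p = 0.333, the smallest that 2 against 2 allows). This level grows with depth and with the length to which reads were extended, and those were not told apart. The lowest pileup called at that background was 7 reads in both DEK KO lists and 8 in both WT control lists. Median pileups in distal regions of all lists were 35 and 39 reads in DEK KO replicates 1 and 2 and 39 and 38 in WT control replicates 1 and 2. The DEK KO lists were the longer ones, and whether the background level bears on the calls was not tested. The pileup and background of each WT-only region were also scaled down to the level of each DEK KO list. Of 3248 regions 3211 (98.9%) were still past the lowest −log10 p that the lists hold, and 37 were not. That lowest value was 2.94 and 2.98 in DEK KO replicates 1 and 2 and 3.01 and 2.99 in WT control replicates 1 and 2. Regions chosen as called in both WT control lists pass such a limit nearly by choice. No sampling noise was added, so the share does not tell why a DEK KO call is missing.

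At the LDHB region the summits held 67 and 55 reads in WT control replicates 1 and 2, over local backgrounds of 4.53 and 4.23. The SGK1 region held 49 and 52 reads over 3.31 and 3.43. The FGFR2 region held 56 and 47 over 4.61 and 5.06. The median local background over all peaks was 3.65 and 3.87 in these lists, and 2.22 and 2.49 in WT-only regions. The NSUN4 region stood on a higher background, with 100 and 105 reads over local backgrounds of 18.8 and 20.6. The TARS1 region held 107 and 83 reads over 16.1 and 16.1, and the TBC1D1 region 88 and 79 over 17.0 and 16.4. Their folds near 5 came from tall peaks on a raised floor.

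High-ranked regions of low and high fold differed in what lay beside them. Split at a mean fold of 7, a limit chosen after the values were seen, the 25 regions fell into 11 with lower and 14 with higher folds. The nearest region with a DEK KO peak was 1.22 kb away in the median of the 11 and 8.15 kb in the median of the 14. Within 5 kb of such a region lay all 11, against 5 of the 14. The same split of the 126 WT-only regions above the 50th percentile in both lists gave 51 with lower folds, of which 50 had a region with a DEK KO peak within 5 kb, and 75 with higher folds, of which 19 had one. Median local backgrounds were 10.2 and 10.6 reads in WT control replicates 1 and 2 for the 51, and 2.75 and 2.86 for the 75. Local background is part of the fold, so the split is a description.

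The same was seen over all WT-only regions by their distance to a region called in all 4 lists. The 184 regions within 1 kb of one had median pileups of 25 and 27 reads in WT control replicates 1 and 2 and median folds of 3.55 and 3.34. The 1056 regions more than 20 kb from one had 14.5 and 14 reads and folds of 4.75 and 4.43. In the set more than 20 kb away 74.1% of replicate 1 peaks and 74.1% of replicate 2 peaks stood on the genome-wide background, against 3.26% and 4.35% within 1 kb. Calls beside shared open regions were taller in reads and lower in fold, in the median, than isolated ones. Median local backgrounds in replicates 1 and 2 were 6.29 and 6.94 within 1 kb and 2.16 and 2.39 beyond 20 kb. Local background is part of the call and of the fold, and other classes were not split this way. This is therefore a description and not a trait of WT-only regions.

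Most WT-only regions were weak peaks. Their lower percentile had a median of 16.1 (quartiles 8.27 and 27.9) and a maximum of 80.9. The median was 21.6 in KO-only distal regions, taken in the DEK KO lists, 24.8 in distal regions of both WT control lists and 1 DEK KO list, and 56.9 in those of all lists. Above the 50th percentile in both lists were 126 WT-only regions (3.88%), against 10.2% of KO-only regions and 11.8% of those in both WT control lists and 1 DEK KO list. Only 36 were above the 60th and 11 above the 70th, while 998 were below the 10th. In reads, the median summit held 16 in each WT control replicate, with quartiles of 12 and 22 in replicate 1 and 13 and 22 in replicate 2. KO-only regions held 15 and 17 reads in DEK KO replicates 1 and 2, and distal regions of all lists 39 and 38 in WT control replicates 1 and 2. The lower of the 2 pileups was under 12 reads in 827 WT-only regions and at least 20 in 846.

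**Figure D2:**
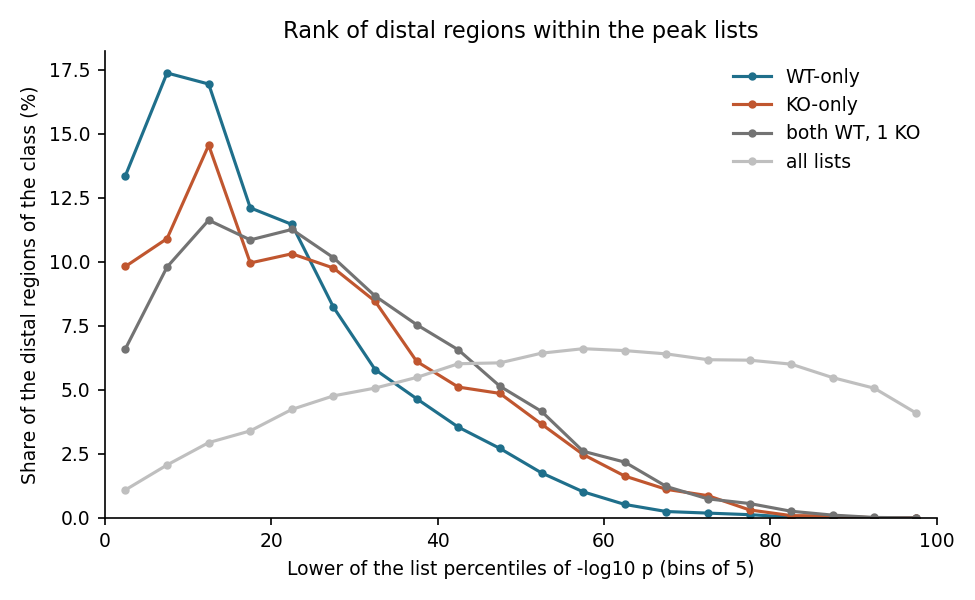
Share of the distal regions of each class (y axis, %) by the lower of their list percentiles of −log10 p (x axis, bins of 5 points), with percentiles taken in the DEK KO lists for KO-only regions and in the WT control lists for the others. WT-only regions are the most crowded at the low end, with a median of 16.1 against 21.6 for KO-only regions and 56.9 for regions of all lists.

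At the bottom of the ranking, PPIL1, a cyclophilin of the spliceosome, was nearest to chr6:36851268-36851671, with 8 and 10 reads and folds of 2.65 and 2.93 in WT control replicates 1 and 2. TRAM1, of the protein translocation machinery, had 9 and 11 reads (chr8:70578497-70578939, folds 2.62 and 3.02), and the region nearest UGT2A3, a glucuronosyltransferase, had 14 and 8 (chr4:68907867-68908735, folds 4.24 and 2.65). The 8 reads at 2 of them are the lowest pileup called at the genome-wide background in those lists. At the distance limit, the regions just inside it were 1008 bp from RFPL1, 1009 bp from DVL1 and 1014 bp from PFKFB3. Just outside it were regions 999 bp from MARCKSL1 and 998 bp from KCNV1. The MARCKSL1 region had folds of 6.11 and 5.48 at a lower percentile of 60.3, within the range of the 36 highest WT-only regions.

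The replicates' summits lay farther apart in WT-only regions than in the classes they were set beside. The WT control summits of a WT-only region were 54 bp apart in the median, with 48.2% within 50 bp and 85.5% within 200 bp. The median was 44 bp for KO-only regions between the DEK KO summits, 44 bp for regions of both WT control lists and 1 DEK KO list, and 35 bp for regions of all lists. Across regions, Spearman's rho of −log10 p between the WT control replicates was 0.595 in WT-only regions, 0.685 in those of both WT control lists and 1 DEK KO list and 0.918 in those of all lists. KO-only regions gave 0.597 between the DEK KO replicates. Regions are not replicates, and the range of −log10 p differs between the classes, so these are descriptions.

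The regions were short, with a median width of 547 bp (quartiles 431 and 713) and a range of 243 to 2235 bp. KO-only regions measured 533 bp, regions of 1 WT control and 1 DEK KO list 489 bp and regions of all lists 918 bp in the median. The widest was chr12:89693116-89695350 inside ATP2B1, a plasma membrane calcium pump, where the WT control summits lay 1226 bp apart. Next came chr21:21713774-21715965, 170 kb from NCAM2, a neural adhesion molecule, at 2192 bp and with 2 peaks in each WT control list. The nearest region with a DEK KO peak was 512 kb away from it. The FGFR2 region, at 1690 bp, came after these. The other 7 of the 10 widest were 1553 to 1685 bp and lay nearest RAB6C, UNC13C, CDH9, SP4, HMCN1 and SERPINE2 or inside VPS13D, with lower percentiles from 6.04 (HMCN1) to 60 (SP4).

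Inside protein-coding genes WT-only regions had the highest share of the 5 distal classes compared, with no test over regions. It was 57.0% (1850 regions, exact 95% binomial interval 55.2 to 58.7), against 46.3% (45.2 to 47.4) of KO-only regions, 51.5% of regions of 1 WT control and 1 DEK KO list, 53.3% of those of both WT control lists and 1 DEK KO list and 52.8% of those of all lists. These intervals, like all below, cover counting error only. Outside any annotated gene, coding or not, lay 32.1% of WT-only and 40.5% of KO-only regions. A lncRNA span covered 14.8% of WT-only regions, against 17.0% of KO-only and 16.8% of all-list regions. The reference table gives gene spans without exons, so exon and intron were not told apart. The median distance to a gene end was 39.0 kb (quartiles 13.5 and 115), against 42.3 kb for KO-only and 33.4 kb for all-list regions, and 28.1% were more than 100 kb from one.

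Regions that both genotypes share lay near a larger share of WT-only regions than of the other distal classes at a distance of 5 kb. A region of all lists was within 5 kb of 29.6% of them (28.0 to 31.2), against 20.5% of KO-only regions, 22.2% of regions of 1 WT control and 1 DEK KO list, 25.8% of those of both WT control lists and 1 DEK KO list and 26.5% of other all-list regions. The order was not the same by every measure. The median gap was 10.7 kb for WT-only, 13.6 kb for KO-only and 9.69 kb for other all-list regions, and within 500 bp of such a region lay 1.75% of WT-only regions, against 1.86% of those of both WT control lists and 1 DEK KO list. Any region with a DEK KO peak was within 500 bp of 151 WT-only regions, within 1 kb of 360 (11.1%) and within 5 kb of 1572 (48.4%), with a median gap of 5.28 kb. No test over regions was made of these shares.

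**Figure D3:**
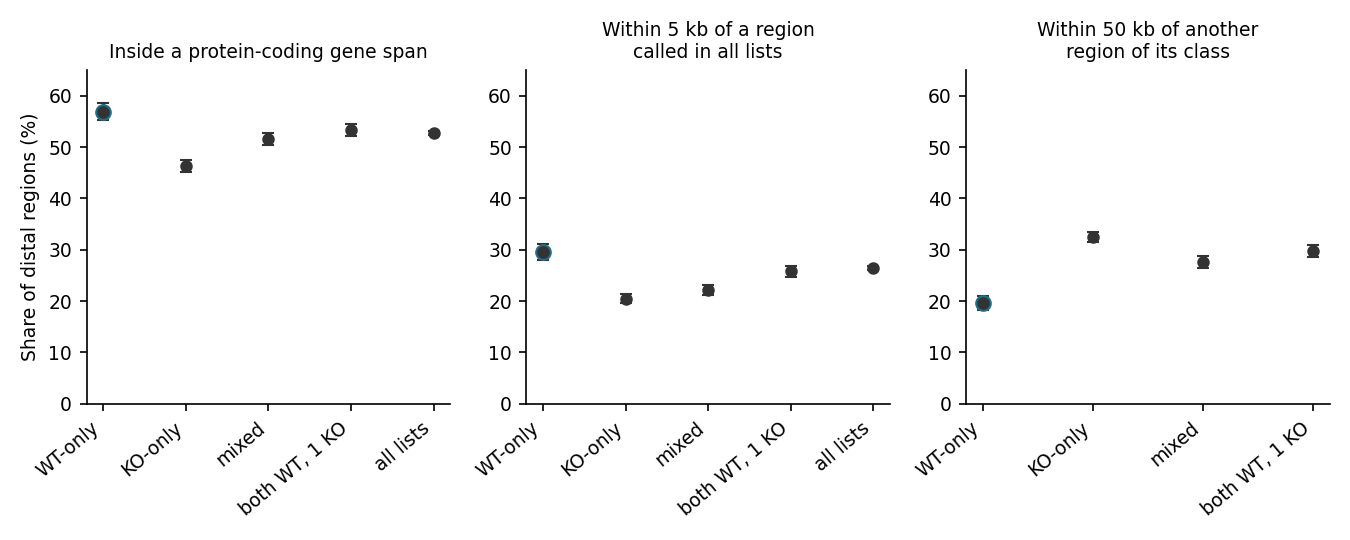
Share of distal regions (y axis, %) inside a protein-coding gene span (left), within 5 kb of a region called in all 4 lists (middle) and within 50 kb of another region of the same class (right), by class on the x axis, with exact 95% binomial intervals as bars. WT-only regions have the highest share in the first and second panels (57.0% and 29.6%) and the lowest in the right one (19.7%), where the classes differ in size and regions of all lists are not drawn.

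Most WT-only regions were scattered singly. Another WT-only region lay within 50 kb of 639 of them (19.7%, 18.3 to 21.1). The same share was 32.5% in the larger KO-only class, 27.6% in the class of 1 WT control and 1 DEK KO list and 29.8% in that of both WT control lists and 1 DEK KO list, and it grows with the number of regions in a class. Joined over gaps of at most 50 kb, the 3248 regions formed 2902 loci, of which 2609 held 1 region, 255 held 2, 28 held 3, 6 held 4, 3 held 5 and 1 held 6.

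The locus with 6 WT-only regions lay inside BICC1, an RNA-binding protein whose loss gives polycystic kidneys in mice, over 146 kb (chr10:58650315-58796074). Its summits held 9 to 34 reads in WT control replicate 1 and 14 to 42 in replicate 2, the tallest at chr10:58757750-58758664. In the same stretch were 1 KO-only region, 3 of both WT control lists and 1 DEK KO list and 6 of all lists, so BICC1 also held open regions that both genotypes share. Over the whole gene there were 8 WT-only regions, 1 KO-only region and 15 of all lists. PTPRD, a receptor tyrosine phosphatase, also had 8, with 2 KO-only and 21 all-list regions in its 2299 kb. ANK2, an ankyrin of the membrane skeleton, had 6 WT-only regions and 0 KO-only regions, while KAZN, a protein of epithelial junctions, had 6 and 7. Long genes hold more regions of every class, and no test of a gene was made.

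Of the 3 loci with 5 regions, one spanned 112 kb at TRABD2B, a protease that inactivates WNT proteins (chr1:47972999-48085330), with 4 regions of both WT control lists and 1 DEK KO list and 9 of all lists in between and no KO-only region. Its regions held 13 to 45 reads in WT control replicate 1 and 15 to 49 in replicate 2. One spanned 120 kb at ZNRF2, a ubiquitin ligase (chr7:30262933-30383280), and one 121 kb inside SPATS2L (chr2:200308669-200429176), where 12 regions of all lists and 1 KO-only region lay among them.

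The locus by SP4, a zinc finger transcription factor of the SP family, held no region of another class. Its 4 WT-only regions spread over 65.8 kb between genes (chr7:21261561-21327380), about 101 to 166 kb from SP4, and nothing else was called among them in any list. Their pileups were 27, 15, 22 and 44 reads in WT control replicate 1 and 23, 22, 23 and 40 in replicate 2, in order of position. Folds ran from 4.49 to 8.87, and the region of 44 and 40 reads ranks 36th of all. The locus by UNC13C, a protein that primes synaptic vesicles, was similar (chr15:53807742-53843732, 36.0 kb). Its 4 regions held 15, 34, 25 and 17 reads in replicate 1 and 9, 31, 32 and 16 in replicate 2, with 1 region of the remaining classes among them. These 4 were all the distal regions within 50 kb for which an end of UNC13C was the nearest gene end. Only 1 of them lay inside the gene. Its whole span of 796 kb held 4 WT-only, 0 KO-only and 0 all-list regions. The other loci of 4 lay inside UTRN, CELF2, RABGAP1 with STRBP, and partly inside HS6ST1, with between 1 and 4 regions of all lists among them. Their highest-ranked regions held 38 and 34 reads (UTRN), 34 and 27 (CELF2) and 28 and 25 (STRBP) in replicates 1 and 2.

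By chromosome, WT-only regions made up between 1.51% (chromosome 19, 1.07 to 2.08) and 3.61% (chromosome 1, 3.28 to 3.97) of the distal regions. Chromosomes 21 (3.55%) and 14 (3.33%) followed chromosome 1, and chromosomes 16 (1.78%) and 17 (1.90%) were next to 19 at the low end. KO-only shares ran the other way on chromosome 1, at 5.32%, which was the lowest of all, and were 7.86% on chromosomes 16 and 19 and 7.95% on 17. They did not on chromosomes 21 (7.26%) and 14 (6.89%), which were above the 6.75% of all distal regions. In blocks of 10 Mb with at least 100 distal regions, 281 in all, 2 held no WT-only region. The highest shares were 6.94% on chromosome 21 from 10 to 20 Mb and 6.31% on chromosome 14 from 40 to 50 Mb. Next came 6.23% on chromosome 10 from 50 to 60 Mb. Chromosome 9 had 6.06% from 0 to 10 Mb. Blocks on the short arm of chromosome 7 had like shares. They held 33 from 20 to 30 Mb (6.02%, 4.18 to 8.35) and 30 from 30 to 40 Mb (6.21%, 4.23 to 8.75). KO-only shares in these chromosome 7 blocks were 3.28% and 3.93%. In the blocks of chromosomes 21, 14, 10 and 9 they were 6.94%, 2.70%, 4.50% and 4.66%. The SP4 and ZNRF2 loci lie in these chromosome 7 blocks.

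**Figure D4:**
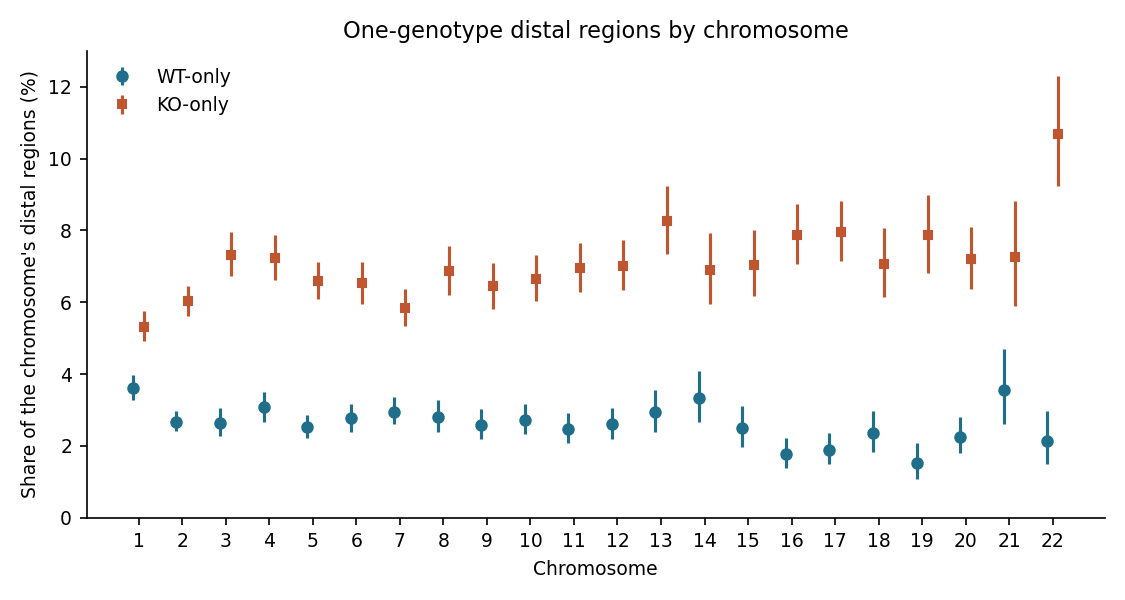
WT-only (circles) and KO-only (squares) regions as a share of each chromosome's distal regions (y axis, %; x axis, chromosomes 1 to 22), with exact 95% binomial intervals as bars. WT-only shares run from 1.51% on chromosome 19 to 3.61% on chromosome 1, where the KO-only share is the lowest (5.32%).

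To see whether accessibility near these regions differed beyond the calls that chose them, the regions called in all 4 lists were ranked within each list by −log10 p among themselves. Those within 50 kb of a WT-only region numbered 9312 and are not WT-only themselves. Their median rank percentile was 49.1 and 48.3 in DEK KO replicates 1 and 2 and 50.6 and 50.6 in WT control replicates 1 and 2. The means were 48.7 ± 0.581 and 50.6 ± 0.00405 (SD, n = 2 each), a difference of -1.98 points. Both DEK KO libraries were below both WT control libraries, and the exact permutation test (two-sided) gave p = 0.333, the smallest that 2 against 2 allows. Beside KO-only regions the difference was 0.958 points and beside regions of 1 WT control and 1 DEK KO list it was -0.396, each at the same p. Of the 9312 neighbours 27.9% ranked lower in both DEK KO lists than in both WT control lists, against 25.7% of all regions called in all lists. Leaving out DEK KO replicate 2 gave -1.28 points, and leaving out WT control replicate 1 or 2 gave -1.12 or -1.31.

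Distance changed its sign. From 5 to 20 kb away the 3046 shared regions had median percentiles of 49.3 and 47.7 in DEK KO replicates 1 and 2 and 51.8 and 51.7 in WT control replicates 1 and 2, a difference of -3.27. From 20 to 50 kb it was -1.97 (5142 regions), from 50 to 200 kb -0.411 and beyond 200 kb 0.664. Closer in it was positive, from 1 to 5 kb (938 regions, 46.5 and 46.4 in DEK KO and 43.4 and 45.0 in WT control libraries) and, at 0.165, within 1 kb (186 regions). Shared regions next to a WT-only region also ranked low in every library, between 38.9 and 39.9 within 1 kb.

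**Figure D5:**
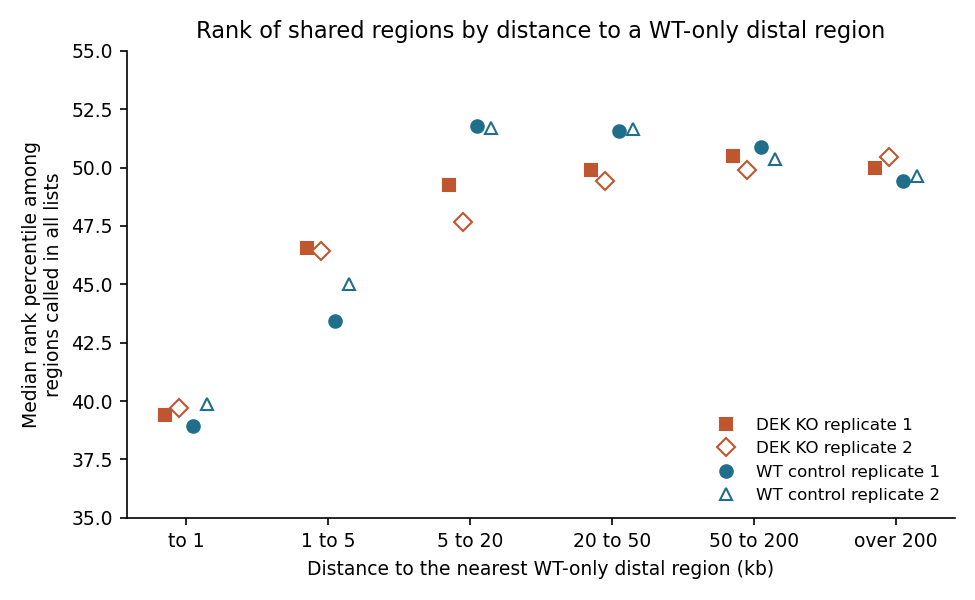
Median rank percentile among regions called in all lists (y axis, starting at 35) by their distance to the nearest WT-only region (x axis, kb), for DEK KO replicates 1 and 2 (filled squares, open diamonds) and WT control replicates 1 and 2 (filled circles, open triangles). From 5 to 50 kb both DEK KO libraries lie below both WT control libraries, and from 1 to 5 kb above them.

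Regions were then assigned to the protein-coding gene with the nearest end within 50 kb. Of 14854 genes with a distal region, 1615 (10.9%) had at least 1 WT-only region and 3563 (24.0%) at least 1 KO-only region. By regions, 1824 of 69070 (2.64%) were WT-only and 4379 of 69070 were KO-only. The 19 gene lists used here were written with earlier results of these data known, and each count is to be read against those shares. Most lists hold genes with more distal regions than the 4.65 of an average gene, which raises the chance that a gene has one, so the share of regions is given too.

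Receptor tyrosine kinases and their ligands had a WT-only region at 11 of 33 genes, and 14 of their 318 distal regions were WT-only (4.40%, 2.43 to 7.28). Besides the region between genes described above, FGFR2 had 2 inside its span. The one at chr10:121511992-121512270 held 65 and 63 reads in WT control replicates 1 and 2, over local backgrounds of 17.2 and 17.7, and the one at chr10:121520172-121520589 held 15 and 13. ERBB4 and ERBB2 are receptors of the EGF family. The 2 regions assigned to ERBB4 held 14 and 13 reads in replicate 1 and 14 and 10 in replicate 2 (chr2:212520480-212520811 and chr2:212528236-212528784), and that of ERBB2 held 27 and 25 (chr17:39695103-39696163). TGFA, a ligand of the EGF receptor and a hypoxia target, had 1 region of 73 and 78 reads 1.91 kb from its end (chr2:70551143-70551918). PDGFC, a ligand of the PDGF receptors, had 1 WT-only and 3 KO-only regions, and TGFA also had 2 KO-only regions. Over its whole span ERBB4 held 4 WT-only and 2 KO-only regions. The list as a whole had 23 KO-only regions among its 318, at 16 genes, against 4379 of 69070 regions over all genes.

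Integrins, laminins and focal adhesion genes gave 11 of 30 genes and 14 of 304 regions (4.61%, 2.54 to 7.61). ITGB6, the beta subunit of the epithelial integrin that activates TGF-beta, had one region of 20 and 20 reads at chr2:160168898-160169796 and one of 83 and 95 reads over backgrounds of 38.1 and 38.8 at chr2:160209534-160209806. FERMT2, an integrin activator, and LAMC1, a laminin chain of basement membranes, had 2 regions each, and ITGA2, a collagen receptor subunit, had 1. KO-only regions of the list numbered 13 of 304, at 12 genes, against 4379 of 69070 over all genes. These lists have more distal regions per gene than the average (9.64 and 10.1 against 4.65), and the lower limits of their region shares are below the 2.64% of all genes.

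Genes of the kidney tubule and of the hypoxia response had a few WT-only regions each. Proximal tubule transport and endocytosis gave 4 of 26 genes and 6 of 141 regions (4.26%, 1.58 to 9.03). MME, the brush border protease neprilysin, had 3, with 14, 18 and 11 reads in WT control replicate 1 and 18, 21 and 13 in replicate 2. CUBN, the endocytic receptor cubilin, had 1 of 27 and 32 reads (chr10:16832560-16832987), and also 3 KO-only regions. FBP1, a gluconeogenic enzyme, and the bicarbonate transporter gene SLC4A4 had 1 each. Among renal lineage transcription factors, 4 of 26 genes and 5 of 213 regions (2.35%), MAF had 2, and HNF4G and TFCP2L1 were among those with 1. HIF and hypoxia targets gave 5 of 28 genes and 7 of 226 regions (3.10%, 1.25 to 6.28). STC2, a secreted glycoprotein hormone, had a region inside its span with 53 and 54 reads (chr5:173319092-173319711) and another of 10 and 11. PFKFB3, which makes the activator of glycolytic phosphofructokinase, had one of 67 and 68 reads over backgrounds of 22.8 and 24.7 at the 1 kb limit and one of 34 and 27 farther away. SLC2A1, the glucose transporter GLUT1, and EGLN1, an oxygen sensor that marks HIF for VHL, had 1 each.

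Glycolysis and lactate genes had 3 of 16 genes and 3 of 90 regions (3.33%), at LDHB, HK2 (29 and 27 reads) and the lactate transporter gene SLC16A1. Mitochondrial biogenesis and nuclear receptor partners had 5 of 20 genes and 6 of 171 regions (3.51%, 1.30 to 7.48), at NRIP1, PPARGC1A, NCOA3, PPARD and TFAM. NRIP1, a corepressor of nuclear receptors, had 2, of 36 and 59 reads in WT control replicate 1 and 37 and 55 in replicate 2. Steroid hormone receptors and targets had 3 of 18 genes and 5 of 126 regions (3.97%), with 2 at NEDD4L, the ubiquitin ligase that SGK1 restrains, 2 at ZBTB16 and 1 at NR3C1, the glucocorticoid receptor gene.

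The signalling lists stood near the background. TGF-beta, BMP and SMAD genes had 7 of 259 regions (2.70%), 2 of them by TGFBR1 with 33 and 25 reads in WT control replicate 1 and 27 and 27 in replicate 2. WNT pathway genes had 7 of 240 (2.92%), 1 each at FZD6, RNF43, LRP6, ZNRF3, WNT7B and 2 more genes. Hippo and TEAD genes had 5 of 215 (2.33%), 2 of them at YAP1, the coactivator of the pathway, with 53 and 13 reads in replicate 1 and 60 and 11 in replicate 2. AP-1, ATF and CREB genes had 4 of 117 (3.42%), 3 of them by FOSL2, a FOS family protein, and 1 at ATF3. NF-kB and inflammatory genes had 2 of 108 (1.85%), both at NFKB1. Epithelial junction and keratin genes had 4 of 166 (2.41%), including 22 and 21 reads inside CDH1, the E-cadherin gene (chr16:68753887-68754538). Mesenchymal and matrix genes had 3 of 253 (1.19%, 0.245 to 3.43), at TNC, CDH2 and THBS1.

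Partners of DEK, histone chaperones and heterochromatin genes had none, with 0 of 85 regions and 0 of 20 genes. A limit of 3 counts allows a share of up to 3.53%, and the exact upper limit is 4.25%. KO-only regions numbered 9 of 85 there, at 7 genes, against 4379 of 69070 over all genes. Of the lists of other cell types, neuronal markers had 7 of 148 regions (4.73%, 1.92 to 9.50), of which UNC13C accounts for 4. Endothelial and fibroblast markers had 5 of 143, 2 of them at RGS5, and blood cell markers 1 of 58 (1.72%), at TAL1. Over all lists, with 497 matched entries, 79 genes had a WT-only region, against 1615 of 14854 genes (10.9%) over all genes with a distal region. A gene can be entered in more than 1 list, as TGFA is, so no share is given for the 79.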

How the data were processed

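ATAC-seq peak lists of 2 DEK KO and 2 WT control libraries of 786-O cells were used, 1 deposited list per library, so peaks were called per library. MACS2 2.2.7.1 (peak calling), Bowtie2 2.2.5 (alignment), SAMtools 1.7 and Picard 2.26.9 are among the tools in the submitters' processing notes, beside cutadapt 1.18, ChIPseeker 1.32.1, DiffBind 3.6.5 and deepTools 3.5.1, with GRCh38 or hg38 as the build. Settings, a shift of reads for the transposase included, were not given in the sources used here. Scores in the deposited lists equal 10 times −log10 q, truncated, in 99.96% to 99.98% of peaks. The deposited fold column is the authors' ratio of summit pileup to background. Deposited p and q values are given as −log10, with a lowest −log10 q of 1.30 to 1.32, and the authors' last column is the summit offset. On chromosomes 1 to 22 the lists held 100037 and 96862 peaks in DEK KO replicates 1 and 2 and 87220 and 88059 in WT control replicates 1 and 2, and 2508 to 2890 peaks per list on other sequences were left out. Read totals are not in peak lists, so depth is unknown. A background level, which grows with depth and with read extension, was solved from fold and −log10 p, an addition made after seeing the data.

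For gene spans a RefSeq gene table (GRCh38.p14, 19122 protein-coding genes) was used, and 497 of 509 entries of the gene lists matched. A planned motif search at peak summits needed genome sequence and was replaced by RefSeq start windows. Values were computed with Python 3.11.15, numpy 2.4.6, pandas 2.3.3, scipy 1.17.1 and matplotlib 3.10.9, and the steps were tested on simulated data. Shares carry exact (Clopper-Pearson) 95% binomial intervals. Library values were compared by exact permutation of the 4 libraries (6 assignments, two-sided), with 0.333 as the smallest possible p. No test was made over regions or genes. The members, gene lists and settings were chosen with earlier results of these data known. By rule the text names the 25 highest-ranked regions, the 10 loci with most regions, the 10 widest and 3 lowest-ranked regions, the 3 nearest on each side of the 1 kb limit and up to 5 genes per list, and a few of these are not reported here. Host genes with many regions and the genes of start windows were named after their values were seen. Alternatives changed list length, peak threshold, overlap, margins and distances, and left out each library.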

Additional observations from a re-analysis of the deposited data

How the results depend on the processing

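The number of WT-only regions depended on the length of the lists, with 4473 when all were limited to the length of the shortest. It stayed within 1.5 times 3248 under this and the other settings that did not leave out a library, with 1 exception. With both WT control peaks above the 50th percentile 126 remained. Leaving out 1 library gave 5365 to 11110, since a region then needs 1 call fewer, and 11110 came without WT control replicate 1. The list genes with a WT-only region numbered 7 above the 50th percentile and 128 to 187 with 1 library left out, against 79. The share over all genes was not computed under these settings, so the counts say nothing of the lists. The share inside a gene was 54.4% with −log10 q of at least 5 in every list, 53.97% above the 50th percentile and 54.5% to 56.1% with 1 library left out. The other classes were not computed under these settings, so whether WT-only regions keep the highest share was not checked. The median width was 572 bp with lists of equal length, 649 bp with −log10 q of at least 5, 662.5 bp above the 50th percentile and 334 to 601 bp with 1 library left out. The median summit distance was 57 bp, 42 bp and 21 bp in these 3 settings, 50 bp where WT control peaks overlapped by 50% of the shorter, and 48 bp without either DEK KO replicate, and could not be given without a WT control replicate. The median gap to a region with a DEK KO peak was 6.48 kb, 7.72 kb and 4.06 kb in the same 3 settings, 5.59 kb with no DEK KO peak within 500 bp, 5.61 kb beyond 5 kb from a gene end and 5.45 to 7.49 kb with 1 library left out. The share with another WT-only region within 50 kb was 25.1% with lists of equal length, 3.17% above the 50th percentile, 27.1% to 44.4% with 1 library left out and 31.6% for a distance of 100 kb. The difference in rank of shared neighbours was negative in all 15 alternatives that did not pair libraries, from -3.67 to -1.12 points, each at p = 0.333 in the exact permutation test, the smallest that 2 against 2 or 1 against 2 libraries allow.

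Of the 25 highest-ranked regions between 18 and 25 overlapped a WT-only region under each setting, with 18 where chromosomes 1 and 7 were left out. Regions this high in both WT control lists pass the limits on rank, list length and −log10 q by choice. Leaving out a library only loosens the rule, so this count is no test of the regions. Leaving out chromosomes 1 and 7, or regions not past the DEK KO limit after scaling, was chosen after seeing the data and gave 2592 and 3211 regions. Without these chromosomes the neighbour difference was -1.27 points. With the replicate number as a block, also added after seeing the data, the neighbour difference was -1.57 points in replicate 1 and -2.39 in replicate 2, with a mean of -1.98 (exact sign-flip test, two-sided, p = 0.5, the smallest that 2 pairs allow). The rank differences between replicates 1 and 2 were hardly correlated between the genotypes (r = 0.013 across 61035 regions, which are not replicates). This value cannot tell whether same-numbered libraries were made together. The other values given above are no differences between libraries and have no blocked form. What limits these values is that a peak list holds no value where no peak was called, so a WT-only region shows a missing call and not a measured level in DEK KO cells, and 827 of them rest on fewer than 12 reads in a replicate.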
